A study of Rattus norvegicus with 4 samples.

Results

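Cathepsins are the proteases of the lysosome and cystatins are proteins that block them, and 10 genes of these families were followed in ischemic rat muscle. The 10 genes were 8 cathepsins (Ctsb, Ctsc, Ctsd, Ctsh, Ctsk, Ctsl, Ctss and Ctsz) and 2 cystatins (Cst3 and Cst6). They were found by gene name on the array, where they had 13 probes among 41012, and they stood among 35658 gene names. Ctsl, Ctss and Cst3 had 2 probes each and the other 7 genes had 1. The transcript accession of all 13 probes gave the same symbol in RefSeq.

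The injured group was gracilis muscle, a thin muscle of the inner thigh, from male Sprague-Dawley rats that underwent 4 h of ischemia and then 1, 3, 7 or 14 days of reperfusion. The sham group was gracilis muscle of the same strain and sex from sham operations. Each day was measured on a single 2-colour Agilent array with 1 injured RNA in Cy5 and 1 sham RNA in Cy3, in the same dye orientation throughout. With 1 sample per group and day there is no replicate and no test of any single day. Precision is limited by having 4 arrays, and the dye and the injury cannot be told apart for a single probe. The labels do not say whether the 4 sham channels came from different animals. The array for day 14 was scanned in a different session from the arrays for days 1, 3 and 7, so that session and day 14 cannot be told apart.

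Lysosomal cathepsins are made as inactive precursors and are cut to their active form in the acid lysosome. Most of those described here are cysteine proteases of the papain family, whereas cathepsin D is an aspartic protease. Cystatins fit into the active-site cleft of the cysteine cathepsins and hold them reversibly. In injured muscle these proteases are known from the phagocytes that clear dead fibres and from cells that remodel the matrix, and muscle fibres make several of them as well. The tissue is a mixture, and in bulk RNA fewer cells of a type and less RNA per cell cannot be told apart.

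All 13 probes were well above background in both channels on all 4 arrays. Of all probes on an array, the injured channel detected 64.4% to 68.7% above background and the sham channel 34.7% to 47.3%. Probes printed 10 times on an array had a median SD of the log2 ratio between 0.0353 and 0.0723, a measure of spot noise that leaves out any difference between animals. The injured spot was saturated for Ctsb on days 1 and 3, for Ctsd on day 1 and for both Ctsl probes on day 1, so the ratios given there are lower bounds. None of the sham spots of these genes was saturated. The 9 muscle fibre markers found on the array, among them Ckm, Actn3 and Mb, were above background in both channels on every day. Their summed level, on the log2 scale, was 15.21, 14.38, 17.36 and 18.20 in injured muscle on days 1, 3, 7 and 14, against 18.39, 18.49, 17.71 and 17.29 in sham muscle. Some of these spots were saturated on days 7 and 14.

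Of the 10 genes, 5 ended above sham on day 14, 4 ended below it and Ctsc ended at sham. On day 1 none of the 10 recorded ratios was at least 2-fold from sham in either direction. Of the 22947 genes measured, 1.24% were at least 2-fold higher and 4.92% lower. The ratios of Ctsb, Ctsd and Ctsl on day 1, and of Ctsb on day 3, were lower bounds. The number of higher genes on those days is thus a minimum. On day 3, Cst6 and Ctsk were at least 2-fold higher and Ctsc at least 2-fold lower, against 2.47% and 3.95% of 24466 genes. By day 7, 4 genes were at least 2-fold higher (Ctsk, Cst3, Ctss and Ctsh) and Ctsl was at least 2-fold lower, against 3.13% and 1.25% of 23501 genes. By day 14, 5 genes were at least 2-fold higher (Ctsk, Cst3, Ctsh, Cst6 and Ctss) and 3 were at least 2-fold lower (Ctsl, Ctsd and Ctsb), against 3.14% and 1.58% of 23753 genes. Ctss lay on the threshold on day 14, with a log2 ratio of 1.00. Ratios just short of it were Ctsl at -0.95 on day 3, Ctsz at -0.90 on day 14 and Ctss at 0.84 on day 1. The counts depended on how the dyes were balanced: with each array centred on its median and no loess curve, the higher and lower counts were 7 and 0 on day 1, 6 and 0 on day 3, 5 and 1 on day 7, and 5 and 1 on day 14. The same centring put 21.8%, 17.2%, 11.6% and 12.2% of all genes at least 2-fold higher on the 4 days, and 1.89%, 1.62%, 0.345% and 0.425% lower.

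As the genes went both ways, their median describes neither direction. The median log2 ratio of the 10 genes was 0.37, 0.14, 0.37 and 0.46 on days 1, 3, 7 and 14, against 0.02, 0.03, 0.04 and 0.05 over all genes measured. For the 8 cathepsins without the cystatins it was 0.45, -0.02, -0.06 and -0.49. The ratios of these genes also moved further over time than most. The distance between the lowest and the highest log2 ratio over the 4 days had a median of 1.81 for the 10 genes and 0.46 for the 20539 genes measured on every array. It was at least 1 for 9 of the 10 genes, as for 20% of all genes, and at least 2 for 5 of the 10, as for 5.07% of all genes, and at least 3 for 1 of the 10, as for 1.82% of all genes. Ctss was the gene whose ratio spanned less than 1. All 10 genes were brighter than most, from percentile 65.1 of brightness upward on day 1. The comparison of spans was not matched for brightness. The 10 genes were also chosen with earlier results of these data known, so the comparison describes them and tests nothing about the family.

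**Figure D1:**
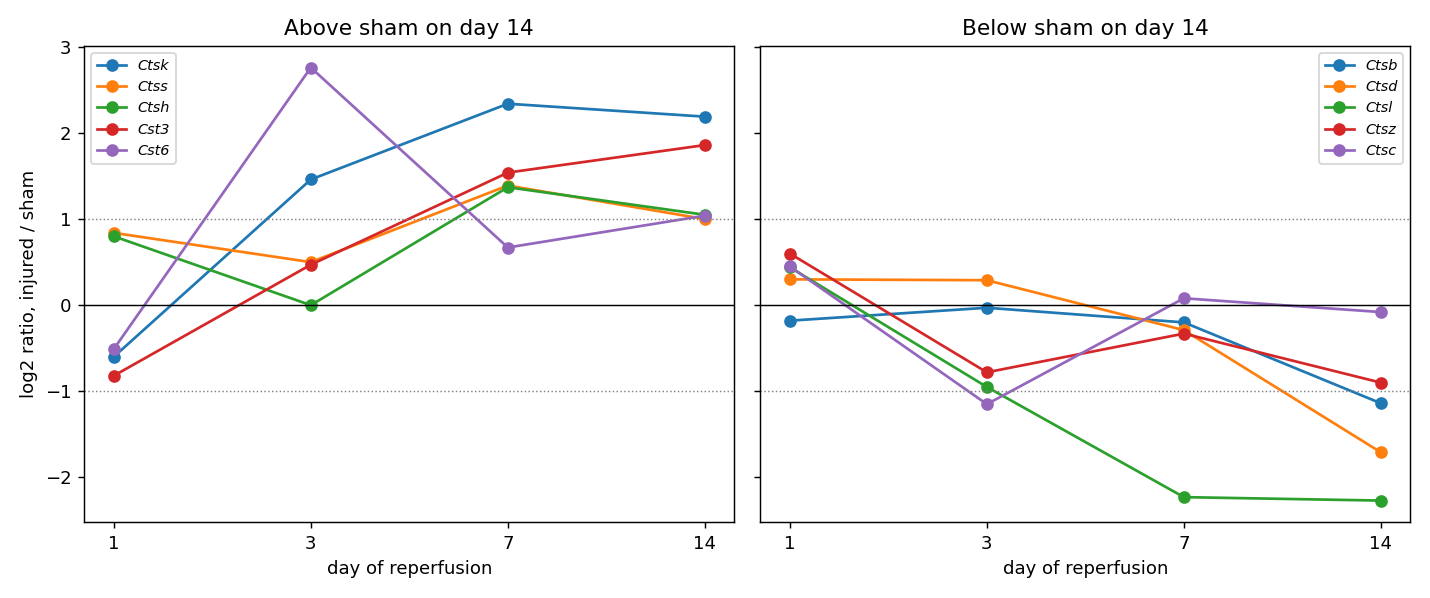
Log2 ratio of injured over sham muscle (y) against the day of reperfusion (x) for the 5 genes above sham on day 14 (left) and the 5 below it (right, with Ctsc at -0.08), 1 array per day, with dotted lines at a 2-fold difference. Cst6 peaks at 2.76 on day 3, Ctsk stands above 2 on days 7 and 14, and Ctsl stands below -2 on the same days.

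Ctsk encodes cathepsin K, a protease able to cut the triple helix of collagen and best known from bone-resorbing osteoclasts. It was the cathepsin with the highest ratio to the sham of the same array on days 3, 7 and 14. Its normalised log2 level was 8.49, 10.80, 10.36 and 10.77 in injured muscle on days 1, 3, 7 and 14, against 9.09, 9.33, 8.02 and 8.58 in sham muscle. The injured level was thus below that of sham on day 1 and above all 4 sham levels on the later days. The log2 ratio was -0.60 on day 1, 1.46 on day 3, 2.34 on day 7 and 2.19 on day 14, or 2.76-fold, 5.06-fold and 4.57-fold higher on the last 3 days. Between days 1 and 3 the ratio changed 4.17-fold. The day 7 ratio went with the lowest of the 4 sham levels. That sham spot was dim, with an unnormalised brightness of 158. The day 7 log2 ratio was 2.67 with no offset and 3.02 in the deposited values. With the mean of the 4 sham channels as the base, the Ctsk log2 ratios of days 3 and 14 were 2.04 and 2.02. On day 7 it was then 1.61, below the 1.66 of Ctsh. The Ctsk probe was the 1 probe of the 13 that shared a run of at least 15 bases with probes of another gene, a run of 16 bases with probes for Mdh1.

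Markers of fibroblasts, the cells that make most collagen, were counted on the same days. Of 10 fibroblast markers, 5 were at least 2-fold higher on day 3, 5 on day 7 and 6 on day 14, with none lower, whereas on day 1 none of the 9 measured was higher and 4 were lower. Their summed log2 level was 14.18, 16.61, 17.14 and 17.05 in injured muscle on days 1, 3, 7 and 14, against 15.85, 15.22, 14.88 and 14.77 in sham muscle. Col1a1, a chain of type I collagen, had a log2 ratio of -2.54 on day 1, 1.80 on day 3, at least 3.27 on day 7 and at least 3.78 on day 14. Col1a2, its partner chain, had -1.48, 1.36, 2.77 and 2.29, and Postn, a matrix protein of healing tissue, had -1.19, -0.62, 2.57 and 3.24. Acp5, the tartrate-resistant acid phosphatase of osteoclasts and some macrophages, had log2 ratios of -0.55, 0.58, 2.37 and 1.86. It was the only 1 of the 4 osteoclast markers found on the array that reached 2-fold on any day. Mmp9, a gelatinase, had 0.89 on day 1, and Calcr, the calcitonin receptor, had at least 0.41 on day 14 with -0.10 at its other probe. The part of these cells in the Ctsk ratio was not tested.

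Ctss and Ctsh encode cathepsin S and cathepsin H. Cathepsin S cuts the invariant chain in antigen-presenting cells, which frees class II molecules for peptide, and cathepsin H trims residues from the amino end of proteins. Their courses were the closest pair among the 10 genes, with a distance of 0.51 between their 4 log2 ratios. Both were above sham on day 1, nearest to sham on day 3 and furthest above it on day 7.

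The brighter Ctss probe had levels of 12.59, 12.20, 11.11 and 12.42 in injured muscle on days 1, 3, 7 and 14, against 11.75, 11.70, 9.71 and 11.42 in sham muscle. On each array the injured channel was the higher, with log2 ratios of 0.84, 0.50, 1.39 and 1.00. Both channels were at their lowest on day 7, and the sham level there lay 1.71 below the next lowest sham level. The second probe gave 0.67, -0.04, 0.92 and 0.75, so that it stayed under 2-fold on every day and was at sham on day 3. With the mean of the 4 sham channels as the base, the brighter probe had 1.44, 1.05, -0.04 and 1.28, which turned the day 7 ratio around.

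Ctsh had levels of 11.01, 10.40, 11.97 and 11.06 in injured muscle on the 4 days, against 10.21, 10.40, 10.60 and 10.01 in sham muscle. The injured level lay above all 4 sham levels on days 1, 7 and 14 and inside their range on day 3. The log2 ratios were 0.80, -0.00, 1.37 and 1.05, which is 2.58-fold higher on day 7 and 2.07-fold higher on day 14. The sham levels of Ctsh spanned 0.59, so both of those differences were wider than the spread over the sham channels. Over the mean of the 4 sham channels the log2 ratio was 1.66 on day 7 and 0.75 on day 14, so the 2-fold call of day 14 rests on the sham of its own array.

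A further list held granule proteases that cathepsin C activates, the invariant chain that cathepsin S cuts and the class II chains it occupies. RT1-Bb, a class II chain, is left out of the counts because its probes went opposite ways. Of the other 14 genes on the array, 6 of 14 measured were at least 2-fold higher on day 7, with 1 lower, and 7 of 13 on day 14, with none lower. On day 1 none of 13 was at least 2-fold from sham, and on day 3 1 of 14 was lower and none higher. The lower gene on days 3 and 7 was Cma1, a granule protease, at -1.80 and -1.34. Of those higher, 2 on each of days 7 and 14 were class II chains, RT1-Da and RT1-Db1. The third class II chain, RT1-Ba, stayed in the counts though its probes also disagreed. It had at least 0.97 on day 7, with -0.26 at its other probe, and -0.76 or lower on day 14. Cd74, the invariant chain, had log2 ratios of -0.33, 0.02, 1.69 and 2.05. Gzmk, a granzyme that cathepsin C activates, was at least 4.79-fold higher on day 14. RT1-Bb had log2 ratios of -3.21, 0.35, 2.46 and -3.23 at its brightest probe, and its other probe gave 0.25 on day 1 and 2.09 on day 14. Counted with RT1-Bb, 1 of 14 measured was lower on day 1, and 7 of 14 were higher and 1 lower on day 14. On day 7, 7 of 15 were then higher and 1 lower. Gzmb, another granzyme, stayed in the counts. Its 3 probes ran from 0.02 to 1.79 on day 7 and from 0.04 to 1.38 on day 14.

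Ctsl encodes cathepsin L, a broad endopeptidase of the lysosome. The brighter of its probes lay in the coding part of the transcript, in the rn4 build at chr17:6290718-6290777 on the plus strand. The oligo is shown because Ctsl had the lowest ratio of the 10 genes and because it reads the bases, in capitals, that encode a stretch of the substrate cleft conserved across the papain family.
Ctsl probe: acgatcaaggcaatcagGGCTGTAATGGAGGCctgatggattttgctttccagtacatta
This probe had levels of 14.90, 13.94, 12.85 and 12.56 in injured muscle on days 1, 3, 7 and 14, against 14.46, 14.89, 15.08 and 14.83 in sham muscle. The injured level was lower on each later day while the sham levels stayed within 0.62 of each other. From day 3 on, the injured level lay below all 4 sham levels. The log2 ratio was at least 0.44 on day 1, where the injured spot was saturated, and -0.95, -2.23 and -2.27 on days 3, 7 and 14. Ctsl was thus 4.68-fold lower on day 7 and 4.83-fold lower on day 14, and the ratio of day 14 lay at least 6.57-fold below that of day 1. The second probe, nearer the end of the transcript, gave at least 0.80 on day 1 and then -0.26, -1.81 and -2.23. Its injured levels were 14.85, 14.26, 12.21 and 13.36, so they rose between days 7 and 14. Its sham levels spanned 1.56, and its injured level lay below all 4 of them on days 7 and 14 alone. The probes differed by 0.69 on day 3 and by 0.04 on day 14.

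**Figure D2:**
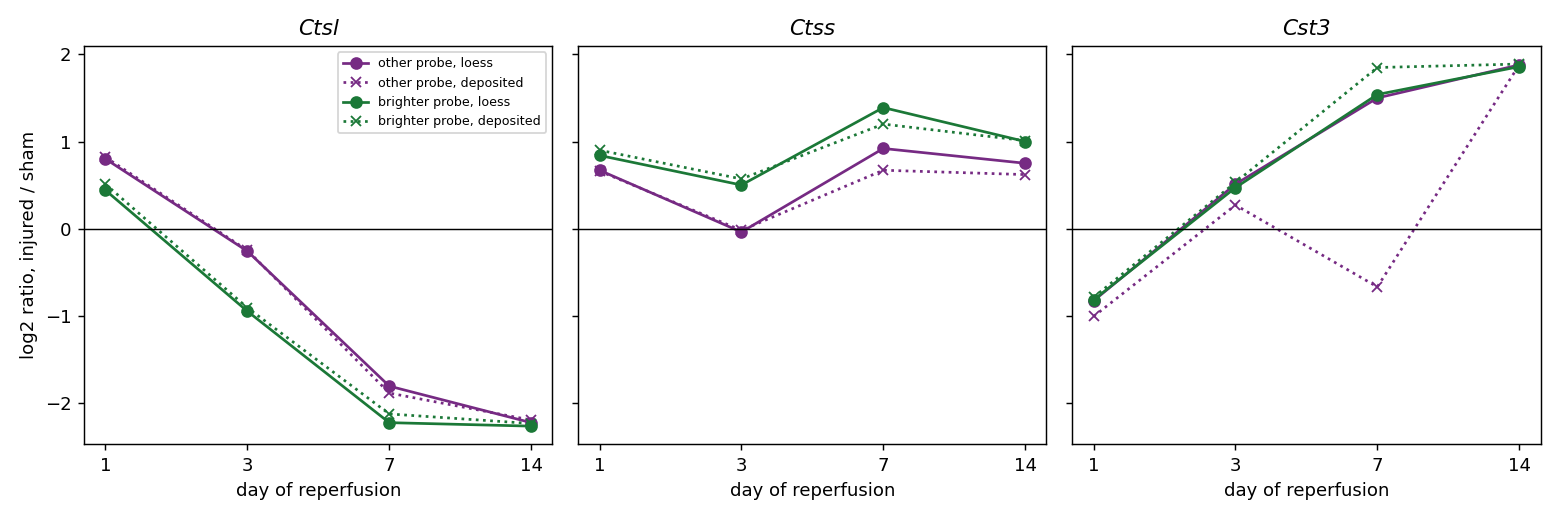
Log2 ratio of injured over sham muscle (y) by day (x) for the genes with 2 probes, with the loess-normalised values as filled points and the scanner software's deposited values as crosses. Both probes of Ctsl and of Ctss rise and fall between the same days under both treatments. On day 3, after loess, those of Ctsl differ by 0.69 and those of Ctss by 0.54. The dimmer Cst3 probe has 1.50 after loess and -0.67 in the deposited values on day 7.

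Ctsd and Ctsb encode the aspartic protease cathepsin D and the cysteine protease cathepsin B, which also trims pairs of residues from the carboxyl end. Their recorded ratios were near sham through day 7, but those of Ctsb on days 1 and 3 and of Ctsd on day 1 are lower bounds. Both genes were at least 2-fold lower on day 14. Ctsd is shown with the 250 bases before its start, because this stretch held 2 copies of the letters CACGTG, the centre of the CLEAR element that the lysosomal regulator TFEB binds. The stretch lies in GRCr8 at chr1:206968822-206969071 on the minus strand, is taken from RefSeq and runs towards the gene, with the matches in capitals starting 157 and 10 bases before the gene.
Ctsd promoter: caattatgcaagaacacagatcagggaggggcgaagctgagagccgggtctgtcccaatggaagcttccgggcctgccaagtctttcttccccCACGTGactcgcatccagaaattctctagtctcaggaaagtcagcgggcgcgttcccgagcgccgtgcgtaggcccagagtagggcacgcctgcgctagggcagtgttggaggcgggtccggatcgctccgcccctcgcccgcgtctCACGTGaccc
The window of 250 bases before to 50 after the start was given for 8 of the 10 genes, all but Ctsb and Cst6. CACGTG, which reads the same on both strands, was found in 1 of these 8 (Ctsd) and in 6.42% of 33469 rat promoters of the same length. On either strand, the PU.1 core GGAAGT was found in 3 of the 8 (Ctsc, Ctsk and Ctss) and in 22.6% of all promoters. The letters of the AP-1 site, TGANTCA, were in 0 of the 8 and in 7.33% of all, and TATAAA was in 1 of the 8 (Ctss) and in 14.2% of all. A match describes the letters in this window and not a bound factor.

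Ctsd had levels of 14.98, 15.18, 14.86 and 13.31 in injured muscle on days 1, 3, 7 and 14, against 14.68, 14.89, 15.15 and 15.01 in sham muscle. The injured level of day 14 stood 1.55 below the next lowest injured level and below every sham level. The log2 ratio was at least 0.30 on day 1, then 0.29, -0.29 and -1.71, and Ctsd was 3.26-fold lower on day 14. The injured spot of day 3 was not flagged as saturated. Its unnormalised brightness of 63689 was near the 65535 of the saturated day 1 spot. Between days 7 and 14 the log2 ratio changed by -1.42. With median centring alone the day 14 value was -0.83, short of 2-fold.

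Ctsb had levels of 15.02, 15.24, 14.75 and 14.76 in injured muscle on the 4 days, against 15.20, 15.28, 14.95 and 15.90 in sham muscle. The injured level of day 14 was that of day 7, and the sham level of day 14 was the highest of the 4. The log2 ratio was at least -0.18 on day 1 and at least -0.03 on day 3, then -0.20 and -1.14, which is 2.20-fold lower on day 14. With the mean of the 4 sham channels as the base, the day 14 ratio was -0.58, as on day 7, and no longer 2-fold, and with median centring alone it was -0.20.

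Ctsz and Ctsc encode exopeptidases. Cathepsin Z removes residues from the carboxyl end, and cathepsin C, a dipeptidyl peptidase, activates the granule proteases of neutrophils, mast cells and cytotoxic lymphocytes. After loess, both were above sham on day 1 and below it on day 3, and neither was at least 2-fold from sham on day 7 or day 14.

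Ctsz had levels of 10.87, 9.61, 10.19 and 9.29 in injured muscle on days 1, 3, 7 and 14, against 10.28, 10.39, 10.52 and 10.20 in sham muscle. Its sham levels lay within 0.33 of each other, the narrowest span among the 13 probes, and the injured level was above all of them on day 1 and below all of them on the later days. The log2 ratios were 0.60, -0.78, -0.33 and -0.90, so that no day reached 2-fold.

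Ctsc had levels of 11.70, 9.60, 9.98 and 10.91 in injured muscle, against 11.25, 10.75, 9.90 and 10.99 in sham muscle. The log2 ratios were 0.45, -1.15, 0.08 and -0.08, and the value of day 3 was 2.22-fold lower. With median centring alone that value was -0.22. On days 7 and 14 the channels of the same array differed by less than 0.1 on the log2 scale. The sham level of day 7 lay 0.85 below the next lowest sham level. Over the mean of the 4 sham channels the ratios were 0.98, -1.12, -0.75 and 0.19, which turned the direction of days 7 and 14. Neutrophil markers had their own course: the summed log2 level of the 9 on the array was 13.68, 11.67, 10.89 and 10.13 in injured muscle on the 4 days, against 11.72, 11.79, 11.60 and 11.45 in sham muscle. Of these 9, 2 were at least 2-fold higher on day 1 and none later. S100a9, a subunit of calprotectin, had log2 ratios of 2.62 on day 1 and -2.57 on day 14. S100a8, the other subunit, had 2.50 and -2.82 at its brightest probe, but its 3 probes ran down to 1.04 on day 1 and up to -0.18 on day 14. Ncf1, an oxidase subunit, had 0.75 on day 1 and -1.23 on day 14. The part of neutrophils in the Ctsc ratio was not tested.

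**Figure D3:**
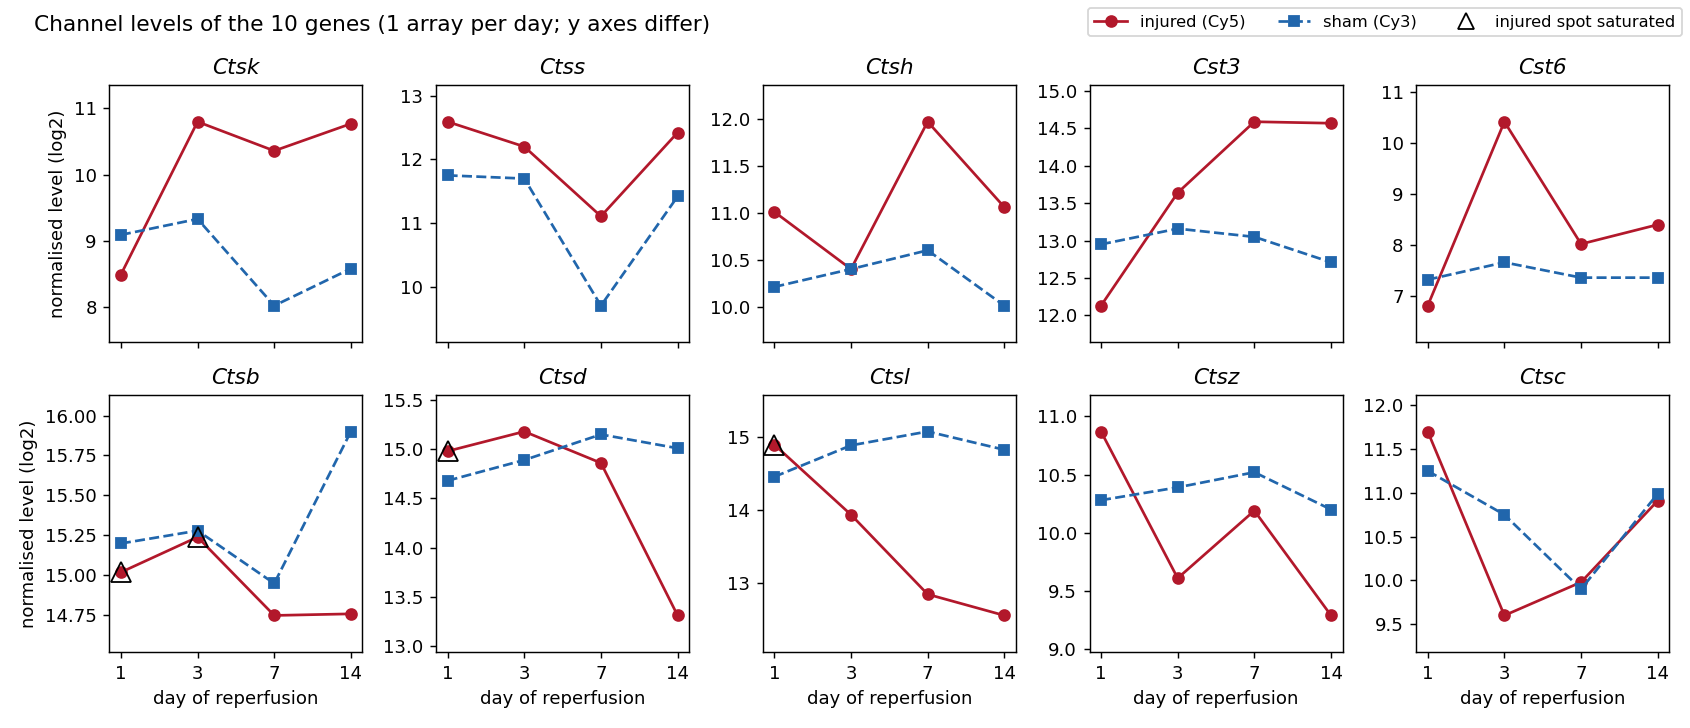
Normalised log2 channel level (y) of each gene's brighter probe by day (x), with injured muscle as red circles and sham muscle as blue squares, 1 sample per point, and triangles on saturated injured spots. The injured line of Ctsl falls to 12.56 on day 14 with sham near 15, and the Ctss sham point of day 7 at 9.71 lies below the other sham points.

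The 2 cystatins both began below sham and were above it on days 3, 7 and 14. Cst3 encodes cystatin C, a secreted inhibitor that most cells make and that blocks cathepsins B, H, L and S. Its brighter probe had levels of 12.13, 13.64, 14.59 and 14.57 in injured muscle on days 1, 3, 7 and 14, against 12.95, 13.16, 13.05 and 12.71 in sham muscle. The injured level was below all 4 sham levels on day 1 and above all of them on the other days, while the sham levels spanned 0.46. The log2 ratios were -0.82, 0.47, 1.54 and 1.86, or 2.91-fold and 3.64-fold higher on days 7 and 14. From day 1 to day 14 the ratio changed 6.43-fold.

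The other Cst3 probe shares 40 of its bases with the first and gave -0.83, 0.51, 1.50 and 1.88 after loess. Its sham levels spanned 1.79, and its injured level was above all 4 of them on day 14 alone and below all of them on no day. In the deposited ratios it gave -0.67 on day 7, where the brighter probe had 1.85. The unnormalised brightness of this spot on day 7 was 9615 in the injured channel and 1637 in the sham channel, a ratio of 5.87, and that of the brighter probe's spot was 33054 and 5137, a ratio of 6.43. The deposited value of this spot thus stood apart from both its own brightness and the neighbouring probe. It was not the only deposited value of day 7 away from loess. Gm2a had -0.11 against 0.82 after loess and Atp6v1b2 had -2.51 against -1.69, while Ctsk had 3.02 against 2.34.

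Cst6 encodes cystatin M, also called cystatin E, a secreted inhibitor of legumain and of cathepsin L-like proteases that is known mainly from human and mouse skin. It had the highest single ratio of the 10 genes. Its probe crosses an intron, in rn4 at chr1:207991974-207992560 on the minus strand, and is shown because it reads the bases, in capitals, for the start of the loop that cystatins push into the active site of the protease.
Cst6 probe: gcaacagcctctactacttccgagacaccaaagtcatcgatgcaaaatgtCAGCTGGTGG
Cst6 had levels of 6.81, 10.42, 8.02 and 8.40 in injured muscle on days 1, 3, 7 and 14, against 7.32, 7.66, 7.36 and 7.36 in sham muscle. The day 3 injured level stood 2.02 above the next highest, and the sham levels spanned 0.34. The log2 ratios were -0.51, 2.76, 0.67 and 1.04, which is 6.79-fold higher on day 3 and 2.05-fold higher on day 14. Between days 1 and 3 the ratio changed 9.67-fold, the widest step of any of the 10 genes, and between days 3 and 7 it changed by -2.10. The unnormalised brightness on day 3 was 2093 in the injured channel and 139 in the sham channel. The sham spot was dim on every array, between 112 and 139, and the ratio moved with the background treatment: with no offset the log2 ratio was 3.18 on day 3, and in the deposited values it was 3.46. The deposited value of day 7 was 1.37, past 2-fold, where loess gave 0.67.

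The injured levels can also be set against all 4 sham levels at once, which takes in the spread between the arrays. Above all 4 were 4, 5, 4 and 5 of the 10 genes on days 1, 3, 7 and 14, against 31.2%, 33.1%, 39.1% and 29.4% of the 20539 genes measured on every array. Below all 4 were 2, 3, 3 and 4 of the 10, against 30.3%, 27.8%, 25.6% and 30.3% of all genes. Levels outside the range of the 4 sham channels were thus common on these arrays, and no difference from all genes is read from these counts.

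A single direction over the 4 days was tested with limma, as the mean of the 4 log2 ratios against 0 over 20539 genes. The days are different conditions, so the spread in this test includes change over time. None of the 10 genes passed a Benjamini-Hochberg adjusted p of 0.05, where 0.0243% of all genes passed as higher and 0.156% as lower. At an unadjusted p under 0.05 there were 2 of the 10, Ctss and Ctsh, against 21.7% of all genes. Ctss came closest, with a mean log2 ratio of 0.93 ± 0.16 (SE, n = 4 arrays), higher on 4 of 4 arrays, and a limma adjusted p of 0.109. Ctsh had 0.80 ± 0.24 and a limma adjusted p of 0.18, and Ctsk had 1.35 ± 0.54 and 0.239. Ctsl had -1.25 ± 0.51 and a limma adjusted p of 0.248, with 3 of 4 arrays below sham. Within the scan session of days 1, 3 and 7 the mean of Ctss was 0.91 and its limma adjusted p 0.199, and again none of the 10 genes passed.

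The 10 genes were bright, and brightness went with the ratio before the dyes were balanced. With all genes ranked by brightness into 10 equal bins, 7 of the 10 genes lay in bin 10, the brightest, 2 in bin 9 and 1 in bin 7 on day 1. With median centring alone, the median log2 ratio of all genes was -0.04 in the dimmest bin and 1.25 in the brightest bin on day 1, and 0.97, 0.79 and 0.75 in the brightest bin on days 3, 7 and 14. After loess it was 0.11 in the dimmest and -0.09 in the brightest bin on day 1. The direction of 11 of the 40 ratios differed between these treatments: Ctsb on days 1, 3 and 7, Ctsz on days 3 and 7, Ctsk and Cst3 on day 1, Ctsh and Ctsl on day 3, Ctsd on day 7 and Ctsc on day 14. The ratios of Ctsk, Cst3 and Cst6 on days 3, 7 and 14 and those of Ctsl on days 7 and 14 had the same direction under both.

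**Figure D4:**
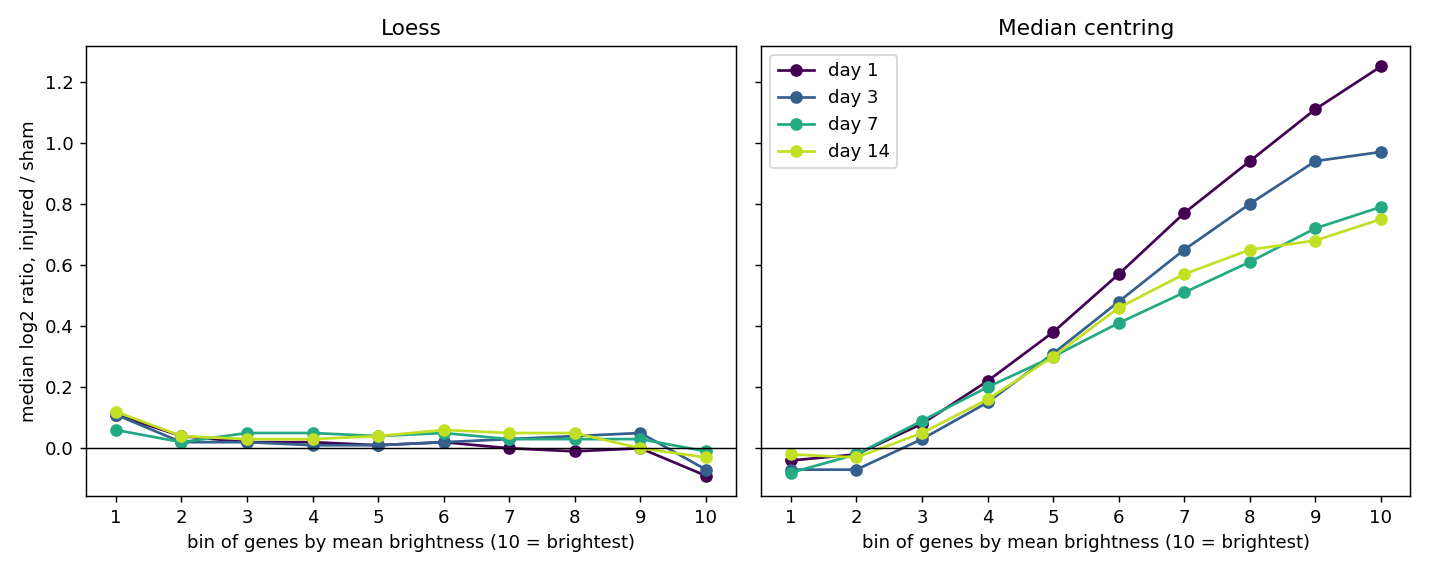
Median log2 ratio of injured over sham muscle (y) of all measured genes in 10 bins of mean brightness (x), for each of the 4 arrays, after loess (left) and after median centring alone (right). The right panel climbs to 1.25 in the brightest bin on day 1, which holds 7 of the 10 cathepsin and cystatin genes, and the left panel stays near 0.

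Genes with the most similar course were found among 10446 named genes measured on all 4 days, by the Euclidean distance over the 4 log2 ratios. Nearest to Ctsk was Bgn, the matrix proteoglycan biglycan, at a distance of 0.25 with ratios of -0.68, 1.65, 2.31 and 2.05, and then Pcolce at 0.58. Nearest to Ctsl was Pdpn, podoplanin, at 0.44 with ratios of 0.76, -1.14, -1.99 and -2.21, and then the Fc receptor gene Fcgr2b at 0.72. Cst3 had Pdgfrl at 0.47 and the class II gene RT1-Db1 at 0.49, and Cst6 had Sned1 at 0.80 and Lepre1 at 0.92. For Ctsh the nearest were Oas1i at 0.15 and Prkr at 0.20, and for Ctss they were RT1-N3 at 0.34 and Sh2d3c at 0.35. Ctsc lay nearest to Card12 at 0.15 and Slc16a3 at 0.34, Ctsd to Tnfrsf12a at 0.40 and Insig1 at 0.47, and Ctsb to Ripx at 0.23 and Cndp2 at 0.26. Within the family, the nearest pairs after Ctsh and Ctss were Ctsb and Ctsd at 0.82, Ctsc and Ctsz at 1.00 and Ctsk and Cst3 at 1.33, and the furthest pair was Ctsk and Ctsl at 6.91. With 4 points per gene these distances are a description, and those of Ctsl, Ctsd and Ctsb rest on ratios that are lower bounds on day 1, and on day 3 for Ctsb.

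The other genes of the lysosome were counted by list in the same way, and all their ratios are on the log2 scale. Of 11 other cathepsins and related proteases on the array, 1 of 7 measured was at least 2-fold higher on day 1, none of 8 on day 3, none of 9 on day 7, and on day 14 2 of 8 were higher and 1 lower. The lower one was Lgmn, legumain, which cuts several cathepsin precursors, with ratios of 0.37, -0.51, -0.69 and -1.74. Ctse, an aspartic protease, had 0.34, 0.14, 0.68 and 1.67, and Napsa, another aspartic protease, had 1.45 on day 1 and 0.22 on day 14.

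Of 15 further inhibitors on the array, 1 of 11 measured was at least 2-fold higher on day 1, 0 of 13 on day 3, 1 of 11 on day 7 and 1 of 12 on day 14, and none was lower. On days 7 and 14 this was RGD1565540, named Ctla2a in RefSeq and known from the mouse as an inhibitor of cathepsin L, with ratios of -0.19, 0.09, 1.59 and 1.78. Stfa2, a stefin, was at least 3.81-fold higher on day 1, but its other probe gave 0.03. Serpinb1a, which blocks neutrophil proteases, had 0.90 on day 1 and stayed between -0.17 and 0.03 afterwards.

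Among 31 lysosomal hydrolases, mostly glycosidases, lipases, phosphatases and sulfatases with the peptidases Tpp1, Dpp7, Prcp and Scpep1, 1 of 31 was at least 2-fold higher on day 1, 0 of 31 on day 3, 3 of 29 on day 7 and 1 of 31 on day 14, and none was lower. Acp5 had the highest ratio, as given above, followed by Aga, which splits sugars from asparagine, at 1.22 on day 7 and Hpse, heparanase, at 1.13 on day 1. Of 17 lysosomal membrane proteins and activators, 2, 0, 1 and 1 were higher and 0, 0, 0 and 2 lower on the 4 days. Cd63, a membrane tetraspanin, had -0.32, -0.55, -0.68 and -1.27. The activator Gm2a had 1.19 on day 1, and Litaf had -1.22 on day 14 with 0.05 at its other probe.

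The proton pump that acidifies the lysosome had a median below sham on days 3, 7 and 14 after loess. Of its 16 subunits and accessory proteins on the array, none was at least 2-fold higher on any day, and 1 of 16 was lower on day 7 and 2 of 16 on day 14. Their median log2 ratio was 0.20, -0.29, -0.30 and -0.42 on days 1, 3, 7 and 14, and 1.37, 0.53, 0.47 and 0.19 with median centring alone, so its sign depended on the dye balance. Atp6v1b2, a subunit of the pump's ATP-splitting head, had 0.26, -0.50, -1.69 and -1.98, and on day 14 Atp6v1c1 had -0.93 and Atp6ap2 had -1.07, with up to -0.15 at its other probes. Of 17 sorting genes and regulators, 14, 13, 13 and 14 were measured on the 4 days, and of these 1, 1, 0 and 0 were higher and 1, 1, 1 and 2 lower. Trem2, a phagocyte receptor, had -0.62, 1.39, 0.75 and -1.75, and Sorl1, a sorting receptor, had 1.56 on day 1 with -0.30 at its other probe. Sqstm1, the autophagy adaptor p62, had -1.96, -1.99, -1.58 and -1.21 at its brightest probe, but its 5 probes reached up to 0.38 on day 1.

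**Figure D5:**
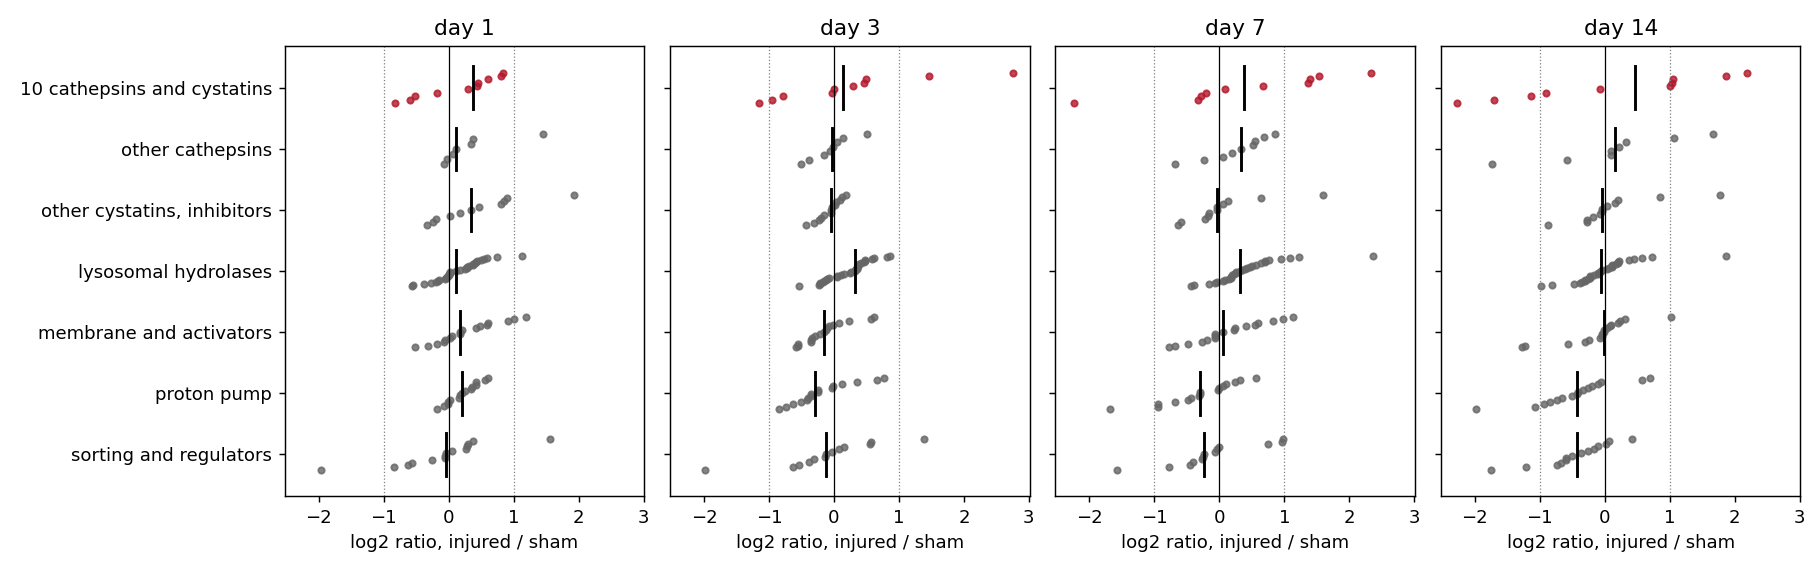
Log2 ratio of injured over sham muscle (x) of each measured gene in 7 lysosomal gene lists (rows) on days 1, 3, 7 and 14 (panels), with a black bar at each list's median and dotted lines at a 2-fold difference. The 10 cathepsins and cystatins (red, top row) reach from -2.27 to 2.19 on day 14, whereas most genes of the other lists lie within 2-fold of sham.

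Macrophages are a main source of lysosomal proteases, and their markers did not move as 1 group. Of the 16 on the array, 5, 3, 7 and 4 were at least 2-fold higher and 1, 2, 3 and 5 lower on days 1, 3, 7 and 14, and all 16 were above background in both channels. Their summed log2 level was 17.15, 16.80, 17.13 and 16.42 in injured muscle, against 16.37, 16.72, 16.56 and 16.65 in sham muscle. Cd68 had log2 ratios of 0.59, 0.57, 1.13 and 0.09, and C1qa, a complement subunit made by macrophages, had -1.01, 1.40, 3.55 and 2.91. Cd163, the hemoglobin scavenger receptor, had -0.45, -1.88, -1.95 and -2.50, and Mrc1, the mannose receptor, had 0.39, -0.07, -1.69 and -2.06. Itgam, an integrin chain of phagocytes, had 2.75, 2.02, 1.34 and -0.81, and the Fc receptor gene Fcgr3a had 0.43, -0.98, 3.07 and 2.48. The part of macrophage numbers in the cathepsin ratios was not tested. Of 8 endothelial markers, Kdr, a receptor for vascular growth factor, was the 1 at least 2-fold higher, at 1.72 on day 7 and 1.37 on day 14, and none was lower. Vwf reached 0.75 on day 3 and Emcn 0.73 on day 7.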

How the data were processed

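Each array's deposited intensity values are the mean brightness of a spot and the median of its local background, not normalized, per the file headers. Per the file headers, LogRatio is a log10 of the injured (red) over the sham (green) signal, which the authors' software had background-subtracted and dye-normalized. The deposited value table, in log2, equalled that LogRatio rescaled to within 0.005 over 40972 probes with 1 spot, with a median of 0 in every column. The file headers name Feature Extraction 10.5.1.1 and the submitters' processing notes 9.5.3. Positions are rn4, per the file headers.

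Intensities were corrected with normexp (offset 50), normalized by loess within each array, and averaged over spots of a probe, in R 4.3.3 with limma 3.58.1. For a gene with several probes the brightest was used. For channel levels, the average log2 brightness of both channels was quantile-normalized between arrays, and each array's ratio was kept. A sham level thus also depends on the injured signal of its own array. Genes with neither channel well above background on a day were not counted on that day, and saturated spots stayed in. A day's call was a ratio of at least 2-fold. With limma, the mean ratio of the 4 arrays was set against 0 over 20539 genes, adjusted by Benjamini-Hochberg. The fit and normalization were tested on simulated data.

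All 10 genes are named, from every other list the 3 with the largest log2 ratio on any day, and for each of the 10 that reached 2-fold the 2 nearest genes in course. Cd68, Cd163, Mrc1, Cma1 and RT1-Ba were added after their values were seen. The genes and lists were chosen with earlier results of these data known. Motifs and sequences came from RefSeq (GRCr8) or the probe column of the files.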

Additional observations from a re-analysis of the deposited data

Results flagged for a closer look

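The 4 sham levels of each of the 13 probes were tested for a sample far from the others with Dixon's criterion, which chance meets in about 1 in 20 groups. It was met by 2 probes. The sham level of the brighter Ctss probe was 9.71 on day 7, against 11.42 to 11.75 on the other days, a gap of 0.838 of the whole range. The sham level of Cst6 was 7.66 on day 3, against 7.32 to 7.36 on the other days, a gap of 0.871 of the range, and the injured level of the same spot was 10.42.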

How the results depend on the processing

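Each ratio set the injured RNA against the sham RNA of the same array, and no further pairing between arrays was used. With median centring in place of loess, 7 of the 10 genes were at least 2-fold higher on day 1 (0 with loess), 6 on day 3 (2 with loess), 0 lower on day 3 (1 with loess) and 1 lower on day 14 (3 with loess), while 21.8% and 17.2% of all genes were higher on days 1 and 3 and 1.62% and 0.425% lower on days 3 and 14. Their medians were then 1.77, 1.38, 0.96 and 1.11, but this centring moved the median of all genes to 0.37, 0.29, 0.27 and 0.27, and relative to it they were 1.40, 1.09, 0.69 and 0.85. With median centring 4 genes (Ctss, Ctsh, Cst3 and Ctsk) passed limma, as did 41.5% of all genes, where the count was 0 with loess and from 0 to 0 when each array was left out. In the deposited ratios the median of all genes was 0.14, 0.18, 0.23 and 0.12. Set against the mean of the 4 sham channels, 1 gene was higher on day 1 and 3 on day 14 (5 against the sham of the same array, with Ctsh at 0.75 and Cst6 at 0.97 no longer 2-fold), the medians of days 1 and 7 were 0.07 and -0.06, and Ctss on day 7 was -0.04. The medians were 0.22 and 0.50 with no offset on days 3 and 7, 0.65 in the deposited ratios on day 7, and 0.40 with the mean of a gene's probes on day 14. Where no value above bears on it, the cause was not tested. Over all genes, limma passed 37, against 778 with the deposited ratios, 8526 with median centring, 25 above background in both channels, 12 against the mean sham, 0 without day 1, 3 or 7 and 8 without day 14. Genes higher and lower on day 1 numbered 285 and 1128 after loess, 2752 and 1959 in the deposited ratios, and 5003 and 434 with median centring. Requiring both channels above background moved none of the 40 ratios, as these probes were all above background. The sham spot of Cst6 was dim all the same, and its ratios moved with the background treatment.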
